A study of Mus musculus with 8 samples.

Results

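The transcripts of 10 cytokine receptor chains were followed in DN3 thymocytes, with and without the endoplasmic reticulum (ER)-associated degradation factor SEL1L. The chains are Il7r, Il2rg, Il4ra, Il21r, Il27ra, Il6st, Il10ra, Il10rb, Ifngr1 and Ifnar1, and they were taken by gene symbol from a table of 16538 genes. All 10 symbols were in the table. The list was chosen by symbol with the RPKM differences between the genotypes already in view, that of Il10ra among them, so the genotype differences of these genes are given as a description, without p values.

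DN3 thymocytes are the CD4-CD8-CD44-CD25+ cells that attempt β-selection. RNA was sequenced from cells sorted from 6-week-old C57BL/6 mice, with 4 libraries from control mice (Sel1l-f/f, both alleles floxed and no Cre) and 4 from Sel1l CKO mice (Sel1l-f/f hCD2cre+). All animals therefore carried the floxed alleles, and the knockout group alone carried the Cre transgene, which is driven by the human CD2 promoter and acts in lymphoid cells from early stages on. The deposited values are RPKM, read counts divided by gene length and library size, with 32900253 to 50401359 reads counted on genes per library.

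Sel1l itself was at 65.1% of the control mean in Sel1l CKO (log2 difference -0.59, standard error (SE) 0.13, limma adjusted p = 0.0327), and the ranges of the genotypes were separate. The values are for the gene as a whole, and no exon was read on its own. All 9 DN3 markers looked at, Il2ra, Ptcra and Rag1 among them, were above a mean of 1 RPKM, and their summed level ran from 249 to 313 RPKM in control and from 183 to 229 RPKM in Sel1l CKO.

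Cytokine receptors are made in the ER, assemble at the cell surface from a chain that recognises the cytokine and a chain that is often shared, and signal through Janus kinases and STAT factors. In the thymus, IL-7 is best known, since it sustains the survival and expansion of double-negative cells through IL-7Rα and the common γ chain. The levels of IL-7Rα change along thymocyte development, and it is low in CD4+CD8+ cells. IL-10 and IL-27 restrain inflammation in many immune cells, and interferons induce antiviral genes in nearly all cells.

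Promoter windows, each from 250 bases before to 50 bases after a transcription start, were found for 7 of the 10 chains in the RefSeq set (GRCm38.p6). Those of Il7r (chr15:9529827-9530126, minus strand) and Il2rg (chrX:101268206-101268505, minus strand) are shown because these genes encode the 2 chains of the IL-7 receptor, and both were lower in every Sel1l CKO library. Capitals mark, on either strand, the letters TTCNNNGAA (a STAT motif), CGGAAG (ETS), TGTGGT (RUNX) and TGTTTAC (FOXO), and no marked stretches overlap.
Il7r: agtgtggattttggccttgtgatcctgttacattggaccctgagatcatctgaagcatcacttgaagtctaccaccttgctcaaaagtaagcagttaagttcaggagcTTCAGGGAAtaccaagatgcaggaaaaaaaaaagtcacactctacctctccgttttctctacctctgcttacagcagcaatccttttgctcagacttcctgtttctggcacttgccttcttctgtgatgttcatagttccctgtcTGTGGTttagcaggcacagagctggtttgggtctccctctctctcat
Il2rg: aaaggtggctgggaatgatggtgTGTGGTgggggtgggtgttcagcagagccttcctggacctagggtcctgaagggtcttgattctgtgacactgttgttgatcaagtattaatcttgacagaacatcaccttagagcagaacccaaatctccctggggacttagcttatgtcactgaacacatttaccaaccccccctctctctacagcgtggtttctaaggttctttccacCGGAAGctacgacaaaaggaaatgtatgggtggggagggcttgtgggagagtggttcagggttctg
The Il7r window held 1 STAT and 1 RUNX match, and the Il2rg window held 1 ETS and 1 RUNX match. Of all 32851 windows of this length, 8.30% held the STAT letters, 16.9% the ETS letters, 16.8% the RUNX letters and 3.65% the FOXO letters. Among the other chains, Ifnar1 had 1 STAT and 3 ETS matches and Il21r had 1 RUNX and 1 FOXO match, while Ifngr1, Il4ra and Il6st had none of the 4. These matches are letters in a window and were not tested for use in these cells.

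To learn which receptor chains differed between the genotypes, values were compared as log2(RPKM + 0.1) with limma's moderated test, for genes with a mean of at least 1 RPKM. Of the 10 chains, 8 passed this filter, which is set on the mean over both genotypes, and Il4ra and Il10rb did not. Of these 8, 1 chain, Il10ra, had a limma adjusted p under 0.05 and was lower, and none was higher, where 1.01% of all 6512 tested genes were called lower and 4.27% were called higher. In 4 of the 8 (Il10ra, Il2rg, Il27ra and Il7r) the knockout range lay wholly below the control range, as in 5.59% of all tested genes. In 0 of the 8 it lay wholly above, as in 9.15% of all tested genes, and the other 4 overlapped. The median log2 fold change was -0.33 over the 8 chains and 0.01 over all tested genes. Because the chains were chosen with this comparison known, neither count is evidence about receptors as a group. In bulk RNA, fewer cells of a type and less transcript per cell cannot be told apart.

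**Figure D1:**
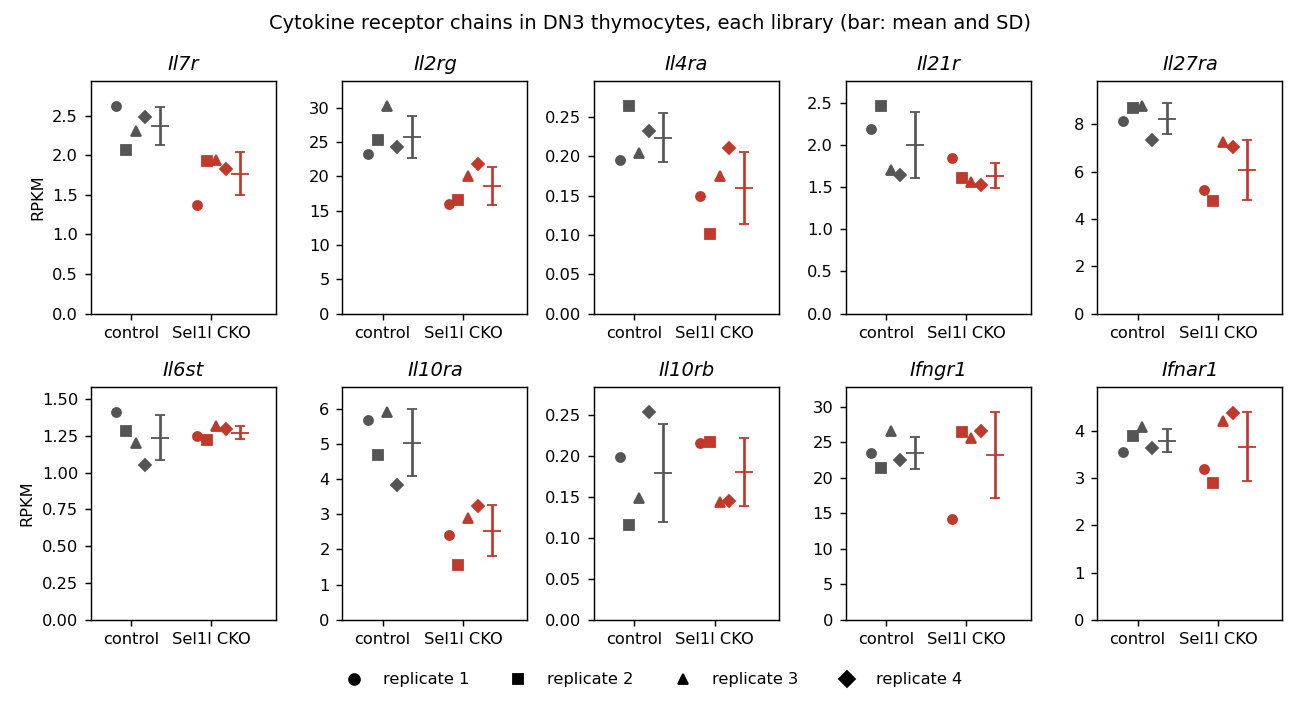
RPKM (y axis, from 0) of the 10 receptor chains in each control (grey) and Sel1l CKO (red) library, with 1 symbol per replicate number and the mean and SD of 4 libraries at the right of each group. Il10ra, Il2rg, Il27ra and Il7r show 2 separate groups of points, and the single low Ifngr1 point, 14.2 RPKM, is Sel1l CKO replicate 1.

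Il10ra (ENSMUSG00000032089.16, GRCm38 chromosome 9, 45253837 to 45269149) encodes the chain of the IL-10 receptor that binds IL-10. It measured 5.68, 4.69, 5.90 and 3.84 RPKM in the control libraries, compared with 2.41, 1.57, 2.90 and 3.24 RPKM in the knockout libraries, here and throughout in the order of replicates 1 to 4. The highest Sel1l CKO library stayed below the lowest control library. The mean fell from 5.03 ± 0.950 to 2.53 ± 0.725 RPKM (SD, n = 4 each), which is 50.3% of control, with a log2 fold change of -0.99 (SE 0.22). Between 1211 and 3536 reads per library lay behind these values, so counting error was small beside the spread between libraries. Among the 6512 tested genes, it ranked 35 from the lowest log2 fold change. When single libraries were left out in turn, its call was lost in 4 of 8 fits, those without control replicate 1, 2 or 3 or Sel1l CKO replicate 1, and also with no filter on low values.

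Il10rb (ENSMUSG00000022969.13, chromosome 16, 91406164 to 91425834) encodes the second chain of the IL-10 receptor, which is shared with the receptors for IL-22 and type III interferons. It measured 0.199, 0.116, 0.149 and 0.253 RPKM in the control libraries, compared with 0.216, 0.217, 0.144 and 0.145 RPKM in the knockout libraries, from 93 to 215 reads per library. The 2 genotypes overlapped throughout, at 0.179 ± 0.0600 and 0.180 ± 0.0416 RPKM (SD, n = 4 each). Whether the 2 chains of this receptor differed in their response was not tested.

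The common γ chain is the signalling partner in the receptors for IL-2, IL-4, IL-7, IL-9, IL-15 and IL-21, and is encoded by Il2rg (ENSMUSG00000031304.18, chromosome X, 101264378 to 101268255). Il2rg measured 23.3, 25.2, 30.2 and 24.3 RPKM in the control libraries, compared with 15.9, 16.6, 20.1 and 21.8 RPKM in the knockout libraries. The groups were separate, with the 2 lowest libraries being Sel1l CKO replicates 1 and 2. Control averaged 25.7 ± 3.09 RPKM against 18.6 ± 2.82 RPKM in the knockout (SD, n = 4 each), 72.2% of control, with a log2 fold change of -0.47 (SE 0.12).

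Il7r (ENSMUSG00000003882.5, chromosome 15, 9505788 to 9530176) encodes IL-7Rα, whose promoter is printed above. It measured 2.62, 2.06, 2.31 and 2.48 RPKM in the control libraries, compared with 1.37, 1.93, 1.94 and 1.83 RPKM in the knockout libraries. The groups came close but did not overlap, with control replicate 2 lying just above Sel1l CKO replicates 2 and 3. Control averaged 2.37 ± 0.241 RPKM against 1.77 ± 0.269 RPKM in the knockout (SD, n = 4 each), 74.8% of control, a log2 fold change of -0.41 (SE 0.12). Both chains of the IL-7 receptor thus had lower values in all 4 Sel1l CKO libraries, and neither passed the adjusted p.

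Il21r and Il4ra encode the chains that pair with the γ chain for IL-21 and IL-4. Il21r (ENSMUSG00000030745.9, chromosome 7, 125603429 to 125633570) measured 2.19, 2.46, 1.70 and 1.64 RPKM in the control libraries, compared with 1.85, 1.61, 1.56 and 1.53 RPKM in the knockout libraries. The groups overlapped, since Sel1l CKO replicate 1 lay above control replicates 3 and 4. Its log2 fold change was -0.26 (SE 0.13). Il4ra (ENSMUSG00000030748.9, chromosome 7, 125552120 to 125579474) was low and measured 0.195, 0.264, 0.204 and 0.232 RPKM in the control libraries, compared with 0.150, 0.101, 0.175 and 0.210 RPKM in the knockout libraries, from 139 to 343 reads. Its mean was 71.1% of control, and Sel1l CKO replicate 4 lay within the control range.

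The IL-27 receptor joins Il27ra, which is particular to IL-27 and gives the complex its specificity, to gp130, the shared chain of the IL-6 family encoded by Il6st. Il27ra (ENSMUSG00000005465.9, chromosome 8, 84030294 to 84042589) measured 8.15, 8.69, 8.77 and 7.33 RPKM in the control libraries, compared with 5.23, 4.76, 7.27 and 7.04 RPKM in the knockout libraries. The groups were separate by a narrow margin, with control replicate 4 just above Sel1l CKO replicate 3. Control averaged 8.24 ± 0.663 RPKM against 6.08 ± 1.26 RPKM in the knockout (SD, n = 4 each), with a log2 fold change of -0.45 (SE 0.14). Il27ra overlaps Palm3 on the opposite strand, and whether the counting used strand is not given in the sources used here.

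Il6st (ENSMUSG00000021756.12, chromosome 13, 112464070 to 112510086) measured 1.41, 1.28, 1.20 and 1.05 RPKM in the control libraries, compared with 1.25, 1.22, 1.32 and 1.30 RPKM in the knockout libraries. All Sel1l CKO values fell inside the control range. The log2 fold change was 0.04 (SE 0.09). Whether Il27ra and Il6st differed in their response was not tested.

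Ifngr1 (ENSMUSG00000020009.13, chromosome 10, 19591949 to 19610229) encodes the ligand-binding chain of the interferon-γ receptor. It measured 23.5, 21.4, 26.6 and 22.6 RPKM in the control libraries, compared with 14.2, 26.5, 25.6 and 26.7 RPKM in the knockout libraries. Sel1l CKO replicate 1 stood far below the other 3 libraries of its genotype, which lay at the top of the control range. The log2 fold change was -0.06 (SE 0.19) with all libraries and 0.16 without Sel1l CKO replicate 1. It was also positive without control replicate 3 (0.001) and with array weights (0.11), so its sign was not stable. Its partner chain Ifngr2, named after its values were seen, averaged 0.784 ± 0.0458 RPKM in control against 0.888 ± 0.0809 RPKM in the knockout (SD, n = 4 each), below the filter. Each Sel1l CKO library had more Ifngr2 than each control library, from 0.821 to 1.01 RPKM against 0.718 to 0.819 RPKM. The margin was narrow, on 457 to 749 reads per library. Among the tested genes, which leave out Ifngr2, 9.15% lay wholly above control.

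Ifnar1 (ENSMUSG00000022967.13, chromosome 16, 91485238 to 91507441) encodes a chain of the type I interferon receptor. It measured 3.55, 3.89, 4.09 and 3.64 RPKM in the control libraries, compared with 3.20, 2.90, 4.20 and 4.38 RPKM in the knockout libraries. The knockout libraries lay on both sides of the control range, replicates 1 and 2 below it and replicates 3 and 4 above it. The log2 fold change was -0.06 (SE 0.13). The other chain, Ifnar2, also named after its values were seen, had a log2 difference of -0.19 (SE 0.07, limma adjusted p = 0.175).

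Several chains therefore differed among the Sel1l CKO libraries themselves, with replicates 1 and 2 apart from replicates 3 and 4. Mean Il10ra was 1.99 RPKM in Sel1l CKO replicates 1 and 2 and 3.07 RPKM in replicates 3 and 4, against 5.19 and 4.87 RPKM in the same-numbered controls. Within replicates 1 and 2 the log2 difference between the genotypes was -1.36 for Il10ra, -0.74 for Il27ra, -0.57 for Il2rg and -0.49 for Il7r. Within replicates 3 and 4 it was -0.62, -0.16, -0.37 and -0.33 in the same order. Since the groups of these 4 chains did not overlap, a lower mean in both sets was given in advance. Ifnar1, Ifngr1 and Il6st changed sign between the sets, with -0.28, -0.21 and -0.11 in the first and 0.15, 0.09 and 0.20 in the second. Sel1l split in the same way, at 0.917, 0.876, 1.32 and 1.23 RPKM in the knockout libraries, with a log2 difference of -0.89 within replicates 1 and 2 and of -0.30 within replicates 3 and 4. Each tested chain, Ifnar1, Ifngr1 and Il6st included, had a higher log2 difference within replicates 3 and 4 than within replicates 1 and 2. For Il10ra, Il27ra, Il2rg and Il7r the smaller differences were thus in the libraries with more Sel1l RPKM. For Il6st and Isg20 the larger differences were there, with 1.32 for Isg20 within replicates 1 and 2 and 2.17 within replicates 3 and 4. By single library, Il7r did not follow Sel1l. Sel1l CKO replicate 2 had the least Sel1l, and its Il7r was 1.93 RPKM, against 1.94 RPKM in replicate 3. The part of the Sel1l level in these differences was not tested. No label names a batch, and whether the 2 sets differ in their genotype effect was not tested.

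**Figure D2:**
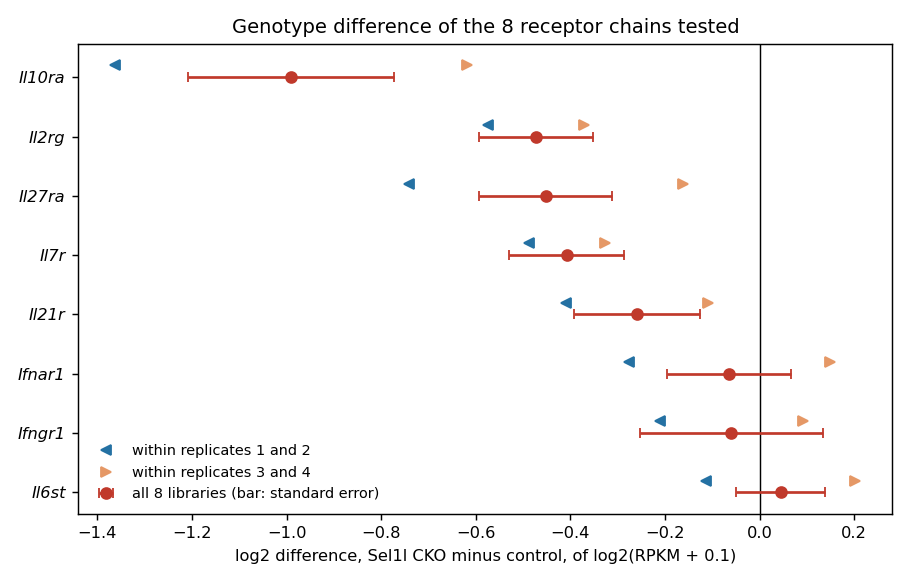
Log2 difference between Sel1l CKO and control (x axis, log2 of RPKM + 0.1) for the 8 chains tested, with red points and standard error bars for all 8 libraries and triangles for the differences of means within replicates 1 and 2 (blue) and within replicates 3 and 4 (orange). Il10ra lies lowest at -0.99, and in each chain the blue triangle lies to the left of the orange one.

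The levels of different genes can be compared only per length of transcript. The lengths in the deposited RPKM ran over introns, so levels were also set on exon length from reads recovered from the RPKM steps. On this scale Ifngr1 was the most abundant chain in control, at 151 ± 14.3 RPKM on exon length (SD, n = 4), followed by Il2rg at 41.8 ± 5.02 and Il27ra at 29.0 ± 2.33. Il10ra followed at 22.0 ± 4.16, Il21r at 18.1 ± 3.59, Ifnar1 at 14.2 ± 0.914 and Il7r at 12.03 ± 1.23. Il6st was at 5.12 ± 0.629, Il4ra at 1.01 ± 0.141 and Il10rb at 0.926 ± 0.310.

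The ranges of neighbours overlapped between control libraries for Il27ra and Il10ra, Il10ra and Il21r, Il21r and Ifnar1, Ifnar1 and Il7r, and Il4ra and Il10rb, so the levels of these pairs were not separate over the libraries. Within single control libraries, Il27ra was above Il10ra and Il21r above Ifnar1 in 4 of 4, and Ifnar1 was above Il7r in 3 of 4. In Sel1l CKO, Il10ra was at 11.1 ± 3.17 RPKM on exon length and Il21r at 14.8 ± 1.33 (SD, n = 4 each). Il10ra was above Il21r in 3 of 4 control libraries and in 1 of 4 Sel1l CKO libraries. IL-7Rα transcript was thus present at less than the γ chain transcript in every library, from 10.5 to 13.3 against 37.8 to 49.1 RPKM on exon length in control and from 6.98 to 9.88 against 25.8 to 35.5 in Sel1l CKO.

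**Figure D3:**
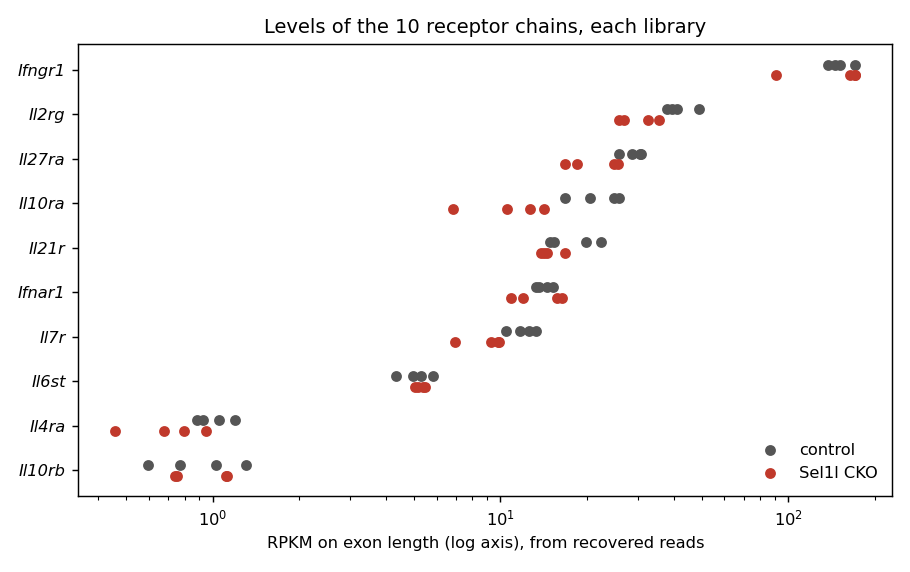
RPKM on exon length (x axis, log scale) of the 10 receptor chains in each control (grey) and Sel1l CKO (red) library, ordered by the control mean. Ifngr1 lies above 90 in every library, and Il4ra and Il10rb lie near 1.

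The pathways around the receptors were read from 8 lists that the rule for the chains did not use, with 143 genes once repeats are counted once. Of the 133 in the table, 65 passed the filter. With limma 1 of them, Isg20, was called higher, and 0 were called lower, which is 1.54% called where 5.28% of all tested genes were called in either direction. At an unadjusted p under 0.05 there were 16 (24.6% of the 65), of which 14 were lower, where 20.8% of all tested genes passed that threshold and 45.8% of these were lower. These counts describe the lists and are no test of them. Their median log2 fold change was -0.13. With limma voom on recovered reads, which tested 109 of these genes, Isg20 was called higher and Stat4 (log2 fold change -0.58, adjusted p = 0.0274) and Bcl6 (log2 fold change -0.98, adjusted p = 0.0287) were called lower, the last 2 named after their values were seen.

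Isg20 (ENSMUSG00000039236.18, chromosome 7, 78913424 to 78920396) encodes an RNA exonuclease that interferon induces. It measured 1.33, 1.41, 1.49 and 1.29 RPKM in the control libraries, compared with 3.48, 3.68, 6.49 and 6.72 RPKM in the knockout libraries. All Sel1l CKO libraries were well above all controls, and replicates 3 and 4 were the highest. It rose with a log2 fold change of 1.75 (SE 0.21, limma adjusted p = 0.00117). In the same fit the other 21 tested interferon-stimulated genes were not called, and 18 of the 22 had a negative log2 fold change. The restriction factor Bst2 had -0.25 (SE 0.14, limma adjusted p = 0.337) and the ubiquitin-like modifier Isg15 had 0.17 (SE 0.26, limma adjusted p = 0.736). Some settings called others of this list, each named after its values were seen. Ifi47, an interferon-induced GTPase, was called lower in 6 of them (limma adjusted p from 0.0295 to 0.0498, log2 difference from -0.27 to -0.24). Gbp3 was called higher with array weights and without Sel1l CKO replicate 1. Xaf1 was called lower with a term for the 2 sets of replicates and without Sel1l CKO replicate 4. Igtp was called lower without control replicate 4 (limma adjusted p = 0.0491).

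None of 7 other receptor chains was called in this fit, in either direction, and with array weights Crlf3 was called lower (log2 difference -0.21, limma adjusted p = 0.0356, against 0.224 without weights). Il2ra, which encodes CD25 and is a marker in the DN3 sort, averaged 17.5 ± 0.689 RPKM in control against 19.6 ± 2.54 RPKM in the knockout (SD, n = 4 each, log2 difference 0.15, SE 0.09, limma adjusted p = 0.375). Crlf2, the thymic stromal lymphopoietin receptor chain that pairs with IL-7Rα, had a log2 difference of -0.12 (SE 0.13, limma adjusted p = 0.649).

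Of the kinases, Jak1 and Jak3 bind the chains of the IL-7 receptor. Jak1 averaged 2.87 ± 0.153 RPKM in control against 2.38 ± 0.259 RPKM in the knockout (SD, n = 4 each), with separate groups and no call (log2 difference -0.27, SE 0.09, limma adjusted p = 0.123). Jak3 had a log2 difference of -0.07 (SE 0.10, limma adjusted p = 0.719) and Tyk2 one of 0.10 (SE 0.12, limma adjusted p = 0.667). None of the 6 tested STAT genes was called. Stat5a, which carries the IL-7 signal, averaged 8.35 ± 0.491 RPKM in control against 7.50 ± 0.527 RPKM in the knockout (SD, n = 4 each, log2 difference -0.15, SE 0.07, limma adjusted p = 0.274). Its groups were barely separate, at 7.94 RPKM in the lowest control library and 7.93 RPKM in the highest knockout library. Those of Stat5b overlapped (log2 difference -0.08, SE 0.09, limma adjusted p = 0.653).

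Of the 12 negative regulators tested, 0 were called in the fit of genotype alone. Cish, a feedback inhibitor that STAT5 induces, had a log2 difference of -0.76 (SE 0.25, limma adjusted p = 0.123), and Socs3, which is induced by STAT3, had one of -1.04 (SE 0.45, limma adjusted p = 0.224). Socs3 measured 11.5, 14.1, 34.6 and 31.4 RPKM in the control libraries, compared with 8.81, 5.30, 10.9 and 18.9 RPKM in the knockout libraries. Its levels were higher in replicates 3 and 4 of both genotypes, and with a term for these 2 sets of replicates it was called lower (limma adjusted p = 0.0140), as was Ptprc, which encodes the phosphatase CD45 (log2 difference -0.48, limma adjusted p = 0.0190).

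As a sum, immediate early and handling genes shared that split, with levels of 561, 422, 2656 and 3935 RPKM in control replicates 1 to 4 and 294, 192, 533 and 610 RPKM in Sel1l CKO. Of these 10 genes, 3 were called lower (Btg2, Hspa1a and Hspa1b). Hspa1a and Hspa1b did not share the split in Sel1l CKO. Hspa1a measured 50.5, 16.1, 460 and 1059 RPKM in the control libraries, compared with 7.18, 3.75, 2.14 and 3.15 RPKM in the knockout libraries. Mean Hspa1b was 527 RPKM in control and 7.29 RPKM in the knockout. The part of these 10 genes in the receptor values was not tested.

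The 12 tested genes of the IL-7 response and of Il7r regulation were also not called. The survival factor Mcl1 had a log2 difference of -0.31 (SE 0.20, limma adjusted p = 0.426) and the transcription factor Tcf7 one of 0.09 (SE 0.07, limma adjusted p = 0.501). Of 4 tested STAT3 targets, none was called in the fit of genotype alone. Junb and Fos, immediate early genes, had log2 differences of -1.04 (SE 0.70, limma adjusted p = 0.428) and -1.06 (SE 0.73, limma adjusted p = 0.434). With the term for the 2 sets of replicates both were called lower, at limma adjusted p = 0.00538 and 0.0105. Of the ligands, only Osm, which encodes oncostatin M, passed the filter (log2 difference 0.26, SE 0.18, limma adjusted p = 0.436). Ifng measured 0.132, 0.138, 2.57 and 2.53 RPKM in the control libraries, compared with 0.0763, 0.147, 0.721 and 0.633 RPKM in the knockout libraries, again higher in replicates 3 and 4 (p = 0.343 by a two-sided exact permutation test).

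**Figure D4:**
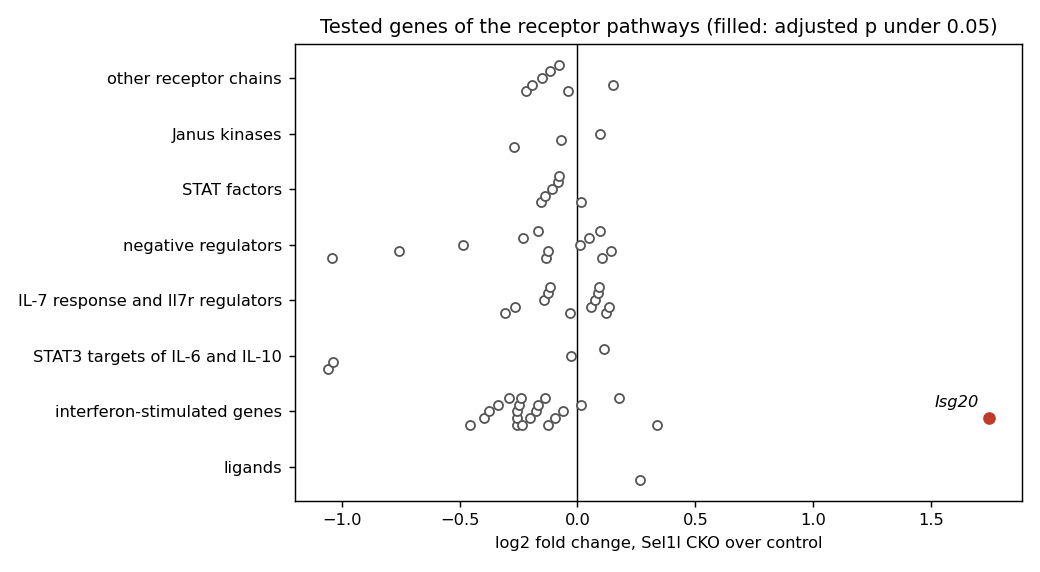
Log2 fold change of Sel1l CKO over control (x axis) for the tested genes of the 8 pathway lists (y axis, vertical offsets within a list only separate the points), with filled points for a limma adjusted p under 0.05. Isg20 at 1.75 is the single filled point, and a gene held by more than 1 list is drawn in each.

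Other cells could carry some of these receptors, so their markers were summed. The 5 B cell markers ran from 8.22 to 10.2 RPKM in control and from 5.31 to 8.22 RPKM in Sel1l CKO, nearly all of it Cd79b, and the 8 myeloid and dendritic markers ran from 3.76 to 6.84 RPKM and from 2.04 to 4.22 RPKM. The 5 NK and innate lymphoid markers, 4 of them in the table, ran from 57.3 to 68.0 RPKM and from 44.2 to 53.8 RPKM, nearly all of it Nkg7 and Gzma, while Klrb1c and Eomes were near 0. Of the 7 post-selection markers in the table, Slc3a2 was called higher (log2 difference 0.90, SE 0.18, limma adjusted p = 0.0188). The other tested markers of this list were not called and had negative log2 differences (Cd27 -0.25, Tfrc -0.16, Nr4a1 -0.47 and Cd69 -0.28). Below the filter, mean Cd28 was at 86.3% of control and mean Cd2 at 320%. Cd2 was low and its groups overlapped, at 0.184, 0.236, 0.101 and 0.368 RPKM in control. In Sel1l CKO it was at 0.557, 1.55, 0.439 and 0.300 RPKM, highest in replicate 2. The part of these lists in the receptor values was not tested.

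Over the 8 libraries, the tested genes whose pattern was most like that of Il10ra were Slc12a7, Fbxl5, Mbtd1, Mtmr3 and Cbfa2t3, and those most like Il7r were Atrx, Pds5b, Sf3b1, Jrkl and Tgs1. Likeness was Pearson's correlation of log2(RPKM + 0.1), from 0.976 to 0.988 for the first set and from 0.949 to 0.976 for the second. These are the 5 closest of 6512 genes in each case, the libraries share the genotype difference, and the values are a description.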

How the data were processed

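RNA from sorted DN3 thymocytes was sequenced by the authors (stranded mRNA libraries, paired-end), aligned with STAR 2.5.2b to GRCm38 and counted on protein-coding genes with HTSeq 2.7, per the methods and the submitters' processing notes. The authors deposited RPKM, 1 column per library, and all 8 columns were used. Libraries were grouped by their titles (4 control, 4 Sel1l CKO).

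The authors tested counts, which were not used here. RPKM values are not counts, so limma 3.58.1 (R 4.3.3, with the mean-variance trend and a genotype term alone, Benjamini-Hochberg over 6512 genes, two-sided) was used on log2(RPKM + 0.1) for genes with a mean of at least 1. Fold changes on this scale understate those of low genes. Low values were whole multiples of 1 read for 75.8% of genes with the GENCODE M21 gene span and for 3.03% with exon length (within 0.02 reads in every library). Lengths for 3702 more genes, 3 of the 10 chains among them, were solved from the values, and recovered reads made up 94.6% to 97.9% of the library totals. The tests were checked on simulated data. Python 3.11.15 with pandas 2.3.3 and matplotlib 3.10.9 made the tables and figures.

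The members and lists were chosen with earlier results of these data known. Named genes are the 10 chains, Sel1l, pathway genes past the adjusted p, up to 4 others per list by mean RPKM, and the 5 genes most like Il10ra and Il7r. Other chains of the interferon receptors, cell type markers and genes called only by an alternative were named after their values were seen. The labels do not tie the libraries to separate mice, so p values measure the spread between these libraries. The alternatives were pseudocounts, filters, scalings, limma options, exon length, voom, block or batch terms, and leaving out each library.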

Additional observations from a re-analysis of the deposited data

Results flagged for a closer look

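One value stood apart from its group. Ifngr1 in Sel1l CKO replicate 1 was at 14.2 RPKM, while the other 3 Sel1l CKO libraries were between 25.6 and 26.7 RPKM, a gap that was large beside the range of the group. It was the only such value among 24 groups of 4 libraries (the 10 chains, Isg20 and Sel1l in each genotype), where chance gives about 1.2.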

How the results depend on the processing

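Leaving out each library in turn, the number of genes called by limma ran from 243 to 317 (344 with all libraries), that of receptor chains from 0 to 2, and that of pathway genes from 1 to 2. The number of genes called was 218 with a mean of at least 5 RPKM, 525 with a batch term for replicates 1 and 2 against 3 and 4, and 640 with array weights. Against 1 receptor chain called, there were 2 with quantile normalization, array weights, the replicate block, the batch term and limma voom on recovered reads, and 0 with no filter on low values. The second chain was Il7r with array weights and Il2rg in the others, and with a mean of at least 5 RPKM, which Il10ra does not reach, Il2rg was the 1 chain called. Against 1 pathway gene called, there were 0 with a mean of at least 5 RPKM, 2 with a pseudocount of 0.01, no filter and median-of-ratios scaling, 3 on exon length and with voom, 4 with array weights and the replicate block, and 7 with the batch term. Beside Isg20, these were Ifi47 (pseudocount 0.01, no filter, median-of-ratios, array weights, batch term, exon length), Crlf3 and Gbp3 (array weights), Socs3, Junb and Fos (block and batch term), Ptprc and Xaf1 (batch term), Stat4 (exon length and voom) and Bcl6 (voom). The cause of these shifts was not tested.

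The log2 fold changes of Il10ra, Il2rg, Il27ra, Il7r and Il21r stayed negative under every alternative that tested them, from -1.12 to -0.72, -0.55 to -0.31, -0.54 to -0.23, -0.47 to -0.28 and -0.34 to -0.16. Those of Ifngr1, Ifnar1 and Il6st took both signs. The groups of Il10ra, Il2rg, Il27ra and Il7r did not overlap. For these chains, leaving out a library or changing the pseudocount or filter could not change the sign. Isg20 was called in all 19 alternatives that tested it, from 1.31 to 2.09. Upward calls were 80.8% of all calls, 68.0% with voom and 65.3% with the batch term.

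Same-numbered libraries of the 2 genotypes deviated together with correlations from 0.0051 to 0.44, over 0.1 in 2 of 4 pairs, and 1 of 4 control and 1 of 4 Sel1l CKO libraries correlated best with its own number, so the numbers were not taken as pairs. With the replicate block, 317 genes, 2 receptor chains and 4 pathway genes were called. Il10rb and Il4ra, with 93 to 343 reads per library, are the chains whose precision depth limits most.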
